A study of Mus musculus with 4 samples.

Results

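Haem is the iron-containing ring carried by cytochromes, catalase and globins, and the liver makes it mainly to supply its cytochrome P450 enzymes. The enzymes described here are 5 of the haem synthesis chain (Alas1, Alad, Urod, Cpox and Fech) and 1 that takes haem apart (Hmox1). They were found as every probe set of the MG_U74Av2 array whose single gene symbol in the platform annotation is one of these names. The rule gave 8 probe sets for 6 genes, of 12422 probe sets that are not controls and 8251 named genes. Urod and Cpox each had a pair of probe sets. No measured value entered the rule itself, but the 6 genes were chosen with earlier results of these data known.

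Haem synthesis begins in the mitochondrion, where ALAS1 joins glycine and succinyl-CoA, the step that limits the rate in liver. ALAD, UROD and other enzymes carry the intermediates through the cytosol, CPOX acts when they return to the mitochondrion, and FECH inserts the iron. Haem in turn holds down Alas1, and HMOX1, which is induced by haem and by many stresses, cleaves haem to biliverdin, iron and carbon monoxide.

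RNA came from the liver of male C57BL/6 mice, and each of 4 groups was measured on 1 array. Sham-operated controls, given standard chow and water, were sampled at zeitgeber time (ZT, hours from lights on) 2 and ZT14. ADX mice, from which both adrenal glands had been removed by a dorsal approach under ketamine (91 mg/kg) and xylazine (3.6 mg/kg), were sampled at the same ZT2 and ZT14 and drank 0.9% NaCl. The labels give neither the age of the animals nor the number of mice behind an array.

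Between 5543 and 5865 probe sets had a Present detection call on each array, and all 13 named hepatocyte markers were Present on at least 1 array. Signals were scaled to a common trimmed mean, and signals under a floor of 3.91 units were set to it. Each group being a single array, differences between arrays have no replicate check. Calls were therefore made by size, for probe sets 2-fold or more apart whose brighter array was Present. Of the probe sets called, 54.1% to 67.5% were higher over the 4 comparisons, against 42.4% to 49.6% after quantile normalization and 43.4% to 49.1% with the deposited signals. With the deposited signals, the median log2 difference of ADX against sham over the 4877 probe sets Present on all arrays was -0.17 at ZT2 and -0.11 at ZT14, beside 0.00 and 0.01 after scaling. In total liver RNA, fewer cells of a type and less RNA per cell cannot be told apart.

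Short stretches of the upstream sequence of 3 members are shown because they hold the only matches among 10 motifs searched, most of them sites of clock, stress or hormone factors. RefSeq promoters (GRCm38.p6) were listed for 4 of the 6 genes (Alas1, Alad, Urod and Cpox), and the 250 bases before each listed start were searched on both strands. Each line runs 5′ to 3′ on the gene's own strand, with the matched bases in capitals.
Alas1, chr9:106247906-106247935, minus strand: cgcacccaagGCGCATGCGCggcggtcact
Alad, chr4:62520149-62520178, minus strand: tccgaatgccCACGTGgaccccctcgggcc
Alad, chr4:62519918-62519947, minus strand: gccccgccccCACGTGggcttgcgctttta
Urod, chr4:116994443-116994472, minus strand: ctggatcggtCACGTGgttctcaatatggc

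The Alas1 match is the shortened site of NRF1, a factor of mitochondrial genes. It was searched as GCATGCGC, a motif that 2.26% of 32851 upstream windows held. It was found on both strands at overlapping positions, the first base 195 before the downstream of the gene's 2 listed starts. The Alad and Urod matches are E-boxes, the letters CACGTG that the clock factors CLOCK and BMAL1 are known to bind, which 6.02% of windows held. They begin 105 and 28 bases before the 2 listed starts of Alad and 49 bases before that of Urod. The window before the upstream start of Alas1 held none of the 10 motifs and is given whole, because Alas1 was the member called in both day-night pairs.
Alas1, chr9:106247955-106248204, minus strand: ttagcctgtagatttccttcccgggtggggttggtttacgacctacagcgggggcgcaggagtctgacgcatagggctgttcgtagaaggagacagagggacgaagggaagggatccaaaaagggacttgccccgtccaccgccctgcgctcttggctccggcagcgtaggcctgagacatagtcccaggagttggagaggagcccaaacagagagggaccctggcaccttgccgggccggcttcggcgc

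The other motifs were an E-box variant (CACGTT), the D-box (TTANGTAA), a RORE core (TAGGTCA), cores of the antioxidant (TGACNNNGC), glucocorticoid (ACANNNTGT) and heat shock (GAANNTTC) response elements, a shortened stress response element (TGCTGAGTC) and the cAMP response element (TGACGTCA). They were held by 3.85%, 2.06%, 2.23%, 10.2%, 5.84%, 6.69%, 0.344% and 1.55% of windows, in that order. No listed window of Alas1, Alad, Urod or Cpox held any of these letters. A match is a run of letters and was not tied to a measurement here.

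Among the synthesis enzymes, Alas1 alone was called in a day-night comparison, and it was called in both operations. Its probe set (93500_at, from a gene at chr9:106233455-106247954) had a scaled signal of 609 at ZT2 and 1998 at ZT14 in sham liver. In ADX liver the signals were 555 at ZT2 and 1861 at ZT14. Both ZT14 arrays were therefore above both ZT2 arrays, and all 4 calls were Present.

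From ZT2 to ZT14 the Alas1 signal was multiplied by 3.28 in sham (log2 difference 1.71) and by 3.35 in ADX (1.75). The day-night differences of the pairs thus stood 0.03 apart, a difference that could not be tested with these arrays. Among probe sets with a Present call at both times of a pair, the spread of log2 differences (robust SD) was 0.35 in sham and 0.33 in ADX. Alas1 ranked 19 from the highest of 5250 such probe sets in sham and 15 of 5167 in ADX. Ranked by the smaller of its 2 day-night differences, it was number 9 of the 4877 probe sets Present on all arrays. Only 0.33% of all probe sets were called higher at ZT14 in both pairs.

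**Figure D1:**
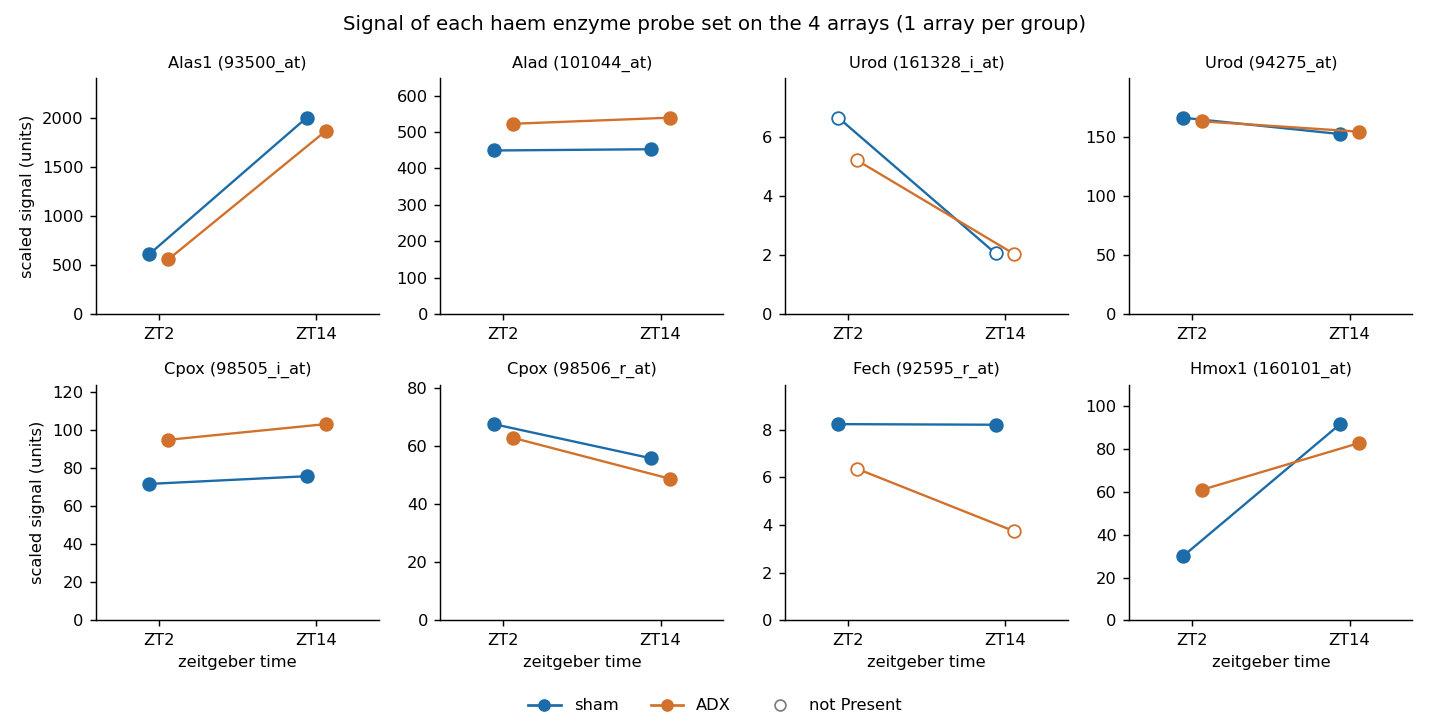
Scaled signal (units, each axis from 0) of the 8 haem enzyme probe sets at ZT2 and ZT14, with 1 point per array, sham in blue, ADX in orange, and open points where the call was not Present. Lines join the arrays of an operation; Alas1 goes from about 609 to 1998 in sham and from 555 to 1861 in ADX, while the sham and ADX lines of Hmox1 cross.

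Alas1 was not called for ADX against sham at either time. ADX minus sham was -0.14 (log2) at ZT2 and -0.10 at ZT14, inside the robust SD over all probe sets of 0.25 and 0.31. With the deposited signals these became -0.31 and -0.23. When limma fitted time and operation as additive terms over all 4 arrays, the time effect on Alas1 was 1.73 (SE 0.15, Benjamini-Hochberg adjusted p = 0.125), higher in both pairs, and it ranked 16 of 5872 probe sets by p. It did not pass 0.05, which 0.0341% of probe sets did. The adjusted p of Alas1 ranged from 0.000266, with a variance trend on signal, to 0.421, with no detection filter, over 9 alternatives. It also passed with the term for operation left out (0.0465). With additive terms and 1 array per group, what is left over for a probe set is the gap between its sham and ADX day-night differences. The additive fit thus judged error on 1 residual degree of freedom, moderated by limma with the residuals of other probe sets. A true gap and array noise cannot be told apart there. Its p-values therefore do not measure the spread among arrays or animals of a group. The operation effect was -0.12 (SE 0.15, adjusted p = 0.922), where 0% of probe sets passed, and -0.27 with the deposited signals (adjusted p = 0.66).

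No enzyme after ALAS1 was called in a day-night comparison. Alad, the cytosolic enzyme that joins a pair of aminolevulinate molecules into a pyrrole (101044_at, gene at chr4:62505984-62520063), had signals of 449 at ZT2 and 453 at ZT14 in sham. In ADX they were 523 and 539. Each ADX array was above both sham arrays, by a log2 difference of 0.22 at ZT2 and 0.25 at ZT14, far under 2-fold. With the deposited signals these became 0.05 and 0.13. In the additive limma fit the operation effect was 0.24 (SE 0.15, adjusted p = 0.857), and the time effect was 0.03 (SE 0.15, adjusted p = 0.944).

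Urod, which removes carboxyl groups from uroporphyrinogen, had signals of 167 and 153 in sham and 164 and 155 in ADX, in the order ZT2 and ZT14 (94275_at, gene at chr4:116989965-116994436). The ZT14 arrays were a little below the ZT2 arrays, by log2 differences of -0.13 in sham and -0.08 in ADX. Its other probe set, 161328_i_at, was called Absent on all 4 arrays with signals of 2.03 to 6.66, around the floor, and its differences are bounds of dim signals. The suffix marks a set with fewer probes than the array's design asked for.

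Cpox, the mitochondrial coproporphyrinogen oxidase (chr16:58670208-58680391), had 2 probe sets from 1 transcript record, D16333, and they went apart. By its suffix, 98505_i_at has fewer probes than the array's design asked for, and 98506_r_at was picked under relaxed rules. With 98505_i_at the signals were 71.7 and 75.7 in sham and 94.9 and 103 in ADX, in the order ZT2 and ZT14, so that both ADX arrays were above both sham arrays. With 98506_r_at they were 67.5 and 55.7 in sham and 62.8 and 48.7 in ADX, so that the ZT14 arrays were the lower ones in each pair.

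ADX minus sham was 0.40 (log2) at ZT2 and 0.45 at ZT14 by the first Cpox set, and -0.10 and -0.19 by the other. The mean of both sets was 0.15 and 0.13, inside the robust SD over all probe sets. ZT14 minus ZT2 was 0.08 in sham and 0.12 in ADX by the first set and -0.28 and -0.37 by the other. No effect on Cpox passed in the additive limma fit, where the smallest adjusted p was 0.467. The probe sets thus give this gene no settled direction.

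Fech, the last enzyme, was near the lower limit of detection. Its only named probe set, 92595_r_at, was picked by the manufacturer under relaxed rules, as the suffix tells, and had signals of 8.23 at ZT2 and 8.21 at ZT14 in sham, both Present. In ADX the signals were 6.36 at ZT2 (Marginal) and 3.74 at ZT14 (Absent). Against the floor, Fech was at least 2.1-fold lower in ADX at ZT14 (log2 -1.07). It was the only one of 8 member probe sets called at that time, where 1.96% of all probe sets were called, 1.18% higher and 0.781% lower. The call ended when the floor was doubled (log2 -0.07), raised to 23.9 units (0.00) or when both arrays had to be Present. In the additive limma fit the operation effect was -0.72 (SE 0.23, adjusted p = 0.83).

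The enzyme of haem breakdown had a day-night difference that was called in sham liver and not in ADX liver. Hmox1 (160101_at, gene at chr8:75093618-75100593) had a signal of 29.9 at ZT2 and 91.6 at ZT14 in sham. In ADX it was 60.9 at ZT2 and 82.7 at ZT14. All 4 calls were Present, the sham ZT2 array was the lowest, and the ADX ZT2 array lay between it and both ZT14 arrays.

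The sham signal of Hmox1 was multiplied by 3.06 from ZT2 to ZT14 (log2 1.62), and ranked 25 from the highest of 5250. In the ADX pair it was 1.36-fold higher (0.44), under 2-fold and close to the robust SD of 0.33. The day-night difference was thus smaller by 1.17 (log2) in ADX, which was not tested. The additive limma fit, which has no term for such a gap, gave a time effect of 1.03 with an SE of 0.33 (adjusted p = 0.352), higher in both pairs.

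Read across operations, Hmox1 was 2.04-fold higher in ADX at ZT2 (log2 1.03, ranked 24 from the highest of 5367) and stood at -0.15 at ZT14. The call at ZT2 lay at the threshold and was lost with quantile normalization (0.97) and with the deposited signals (0.85). These contrasts share their arrays with the day-night pairs and are the same 4 values read another way. The operation effect in the limma fit was 0.44 (SE 0.33, adjusted p = 0.869).

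**Figure D2:**
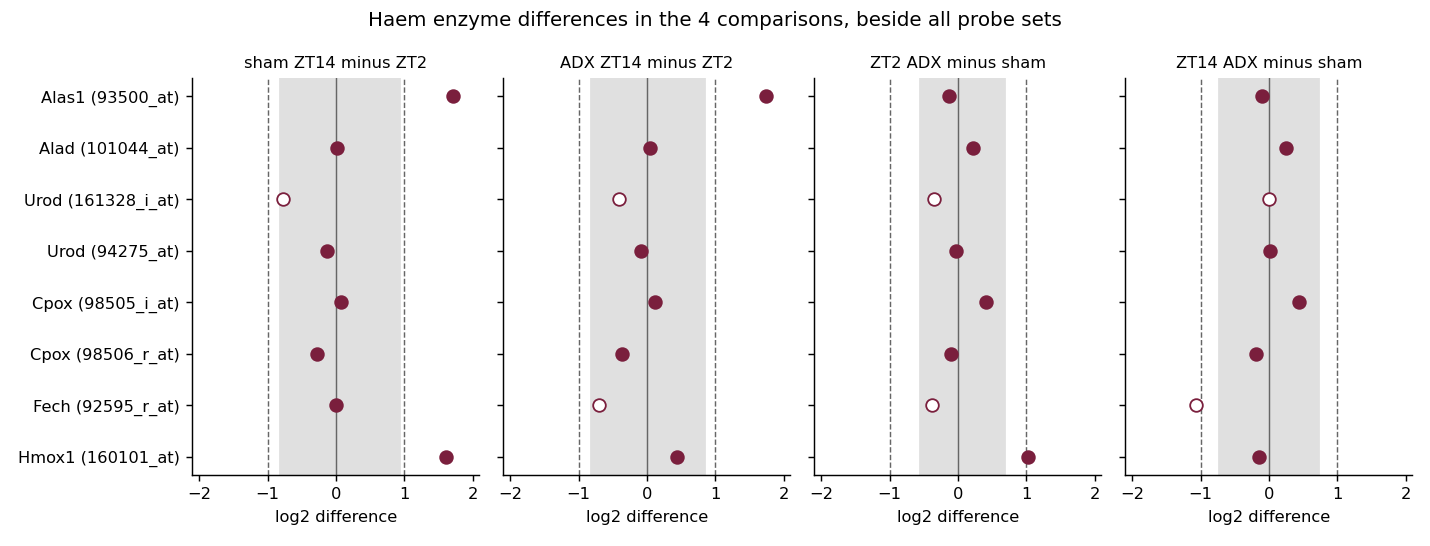
Log2 difference (x axis) of each haem enzyme probe set (y axis) in the 4 comparisons, with open points where an array was not Present, dashed lines at 2-fold, and grey bands over the central 95% of probe sets Present on both arrays. Alas1 lies outside the band in both day-night pairs, at 1.71 and 1.75, and Hmox1 in the sham pair and at ZT2, at 1.62 and 1.03.

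Counted by comparison, 2 of 8 member probe sets (Alas1 and Hmox1) were called higher and 0 lower at ZT14 in sham, where 2.95% of all probe sets were called, 1.7% higher and 1.26% lower. In ADX, 1 of 8 (Alas1) was called higher at ZT14 and 0 lower, against 2.63% (1.42% higher and 1.21% lower). At ZT2, 1 of 8 (Hmox1) was called higher in ADX, against 1.29% (0.869% higher and 0.419% lower). The median over the 8 member probe sets was 0.00 in sham and -0.02 in ADX for ZT14 minus ZT2, beside 0.00 over all probe sets in each pair. The members' medians were -0.07 at ZT2 and -0.05 at ZT14 for ADX minus sham, again beside 0.00.

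**Figure D3:**
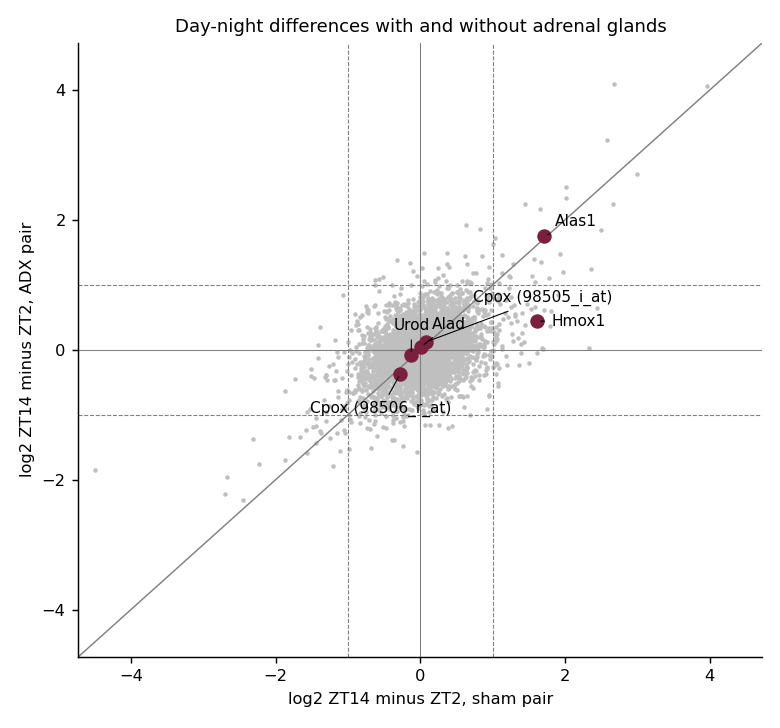
Log2 ZT14 minus ZT2 in the sham pair (x axis) against the ADX pair (y axis) for 4877 probe sets Present on all arrays (grey), with the 6 member probe sets among them in dark red, dashed lines at 2-fold and the line of equal differences. Alas1 lies on that line at 1.71 and 1.75, Hmox1 lies below it at 1.62 and 0.44, and the Alad, Urod and Cpox sets lie near the centre.

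The other enzymes of the pathway stayed within 2-fold. Of 8 on the list, 5 were measured, meaning that the gene's brightest probe set was Present on at least 1 array. In the 4 comparisons 0 of 5 were called, beside 1.29% to 2.95% of all probe sets. Uros, which closes the porphyrin ring, went from 67.5 to 53.3 in sham and from 68.7 to 69.0 in ADX, from ZT2 to ZT14. Ppox, the step between CPOX and FECH, had signals of 42.9 and 35.3 in sham and 38.7 and 26.7 in ADX. Its ZT14 arrays were lower, by -0.28 and -0.54 (log2), and its other probe set was Present on 1 array only.

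Hmox2, the constitutive haem oxygenase, had signals of 23.0 and 21.1 in sham and 20.3 and 25.1 in ADX, the last called Absent. The signals of Blvra, the reductase that turns biliverdin into bilirubin, were 29.1 and 29.7 in sham and 26.2 and 24.2 in ADX. None of these passed 2-fold. Alas2, the form of the first enzyme that red cell precursors use, had signals of 203 and 178 in sham and 207 and 171 in ADX. Its ZT14 arrays were the lower ones, by -0.18 and -0.28 (log2), where those of Alas1 were the higher.

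Of 25 listed regulators of Alas1 and Hmox1, 17 were measured. Over all probe sets, 1.7% were called higher at ZT14 and 1.26% lower in sham, and 1.42% and 1.21% in ADX. Of the 17, 1 was called higher in each pair, and 2 were called lower in sham and 1 in ADX. The one called higher was Nr1d2, which encodes the haem-binding clock repressor REV-ERB beta, with signals of 23.4 and 63.9 in sham and 17.5 and 83.3 in ADX. Its ZT14 minus ZT2 differences were 1.45 and 2.25 (log2), and both ZT14 arrays were above both ZT2 arrays. Nr1d1, its close relative, had differences of -0.26 and 0.53.

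Clpx encodes the unfoldase of a mitochondrial protease known to act on ALAS1 protein, and it was dim and lower at ZT14. Its signals were 18.2 (Present) and 4.10 (Absent) in sham and 16.2 (Marginal) and 2.35 (Absent) in ADX. The sham difference of -2.15 (log2) is a bound and was called, and the ADX difference of -2.05 was not, because the brighter array was Marginal. Lonp1, another protease of ALAS1, had differences of -0.36 and 0.27.

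Among the stress regulators, Egr1, an immediate early factor, was at 76.3 at ZT2 and 10.7 (Absent) at ZT14 in sham, a difference of -2.84. In ADX it was at 34.2 and 14.3 (Absent), a difference of -1.26, so that it was called lower in both pairs, with both differences as bounds. At ZT2 Egr1 was called lower in ADX (log2 -1.16). Nfe2l2, which encodes the Hmox1 activator NRF2, gave 0.25 in sham and 0.54 in ADX. Bach1, a haem-sensing repressor of Hmox1, had signals of 112 at sham ZT2 and 74.1, 76.2 and 74.1 on the other arrays. ADX minus sham at ZT2 was -0.55 (log2) for Bach1, under 2-fold. The part of these regulators in the values of Alas1 and Hmox1 was not tested.

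The other nuclear receptors of the list were not called. Ppara gave 0.78 in sham and 0.72 in ADX, Nr1h4, the bile acid receptor, 0.68 and 0.43, and Nr1i3, the xenobiotic sensor that induces Alas1, 0.65 and 0.48. Hnf4a gave 0.41 and 0.22, and Nr1i2, another xenobiotic sensor, turned sign with -0.49 and 0.37. The list's median was -0.12 in sham and 0.27 in ADX, beside 0.00 over all single-gene probe sets. Ppargc1a, Mafk and Maff were Present on no array.

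**Figure D4:**
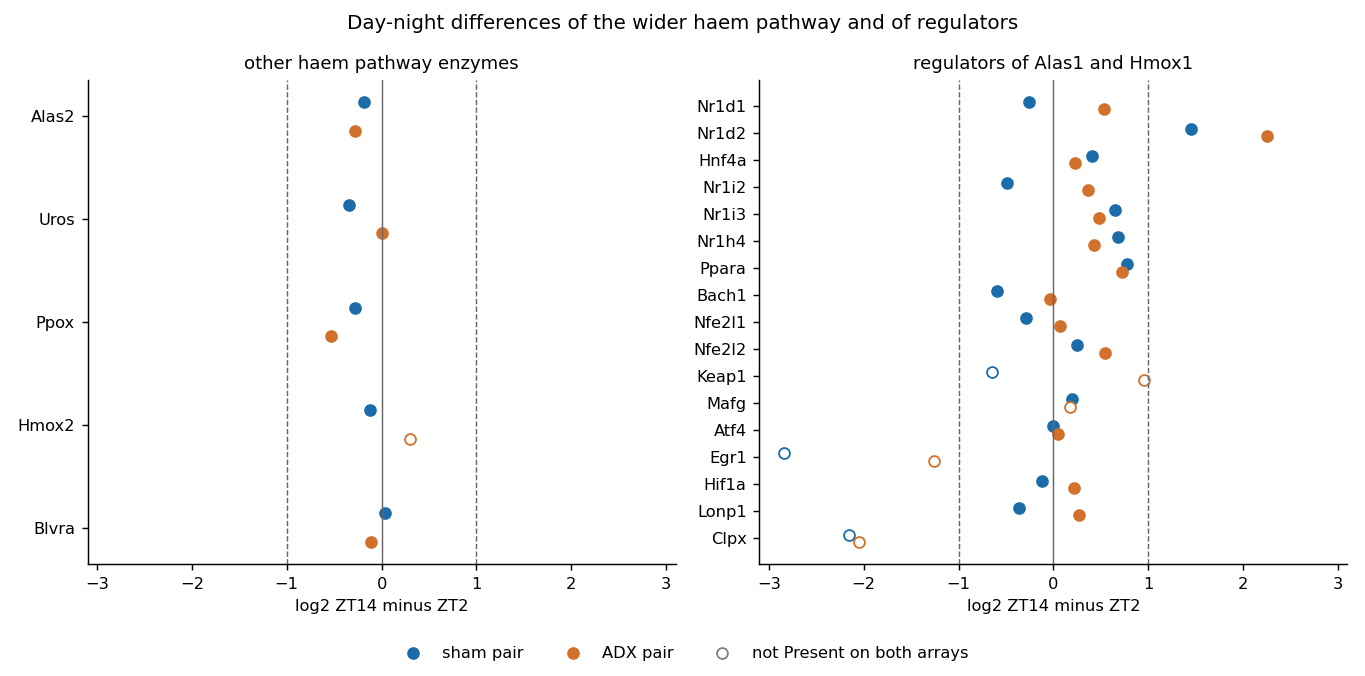
Log2 ZT14 minus ZT2 (x axis) of the brightest probe set of each measured gene (y axis) among the other haem pathway enzymes (left) and the regulators (right), in the sham pair (blue) and the ADX pair (orange), with dashed lines at 2-fold. The 5 enzymes lie within 2-fold in both pairs, and past it lie Nr1d2, at 1.45 and 2.25, and, with open points for arrays not Present, Egr1 and Clpx.

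Of 38 listed haem proteins of liver, the users of the product, 29 were measured. In sham 1 was called higher at ZT14 and 2 lower, beside 1.7% and 1.26% of all probe sets. In ADX 2 were called higher and 1 lower, beside 1.42% and 1.21%. Cyp7a1, whose product starts bile acid synthesis, gave 1.25 (log2) in sham and 0.42 in ADX. Its signals were 52.9 at sham ZT2, 126 at sham ZT14, 72.4 at ADX ZT2 and 96.6 at ADX ZT14, the same order of the 4 arrays as for Hmox1. Cyp8b1, a sterol hydroxylase of the same pathway, gave -1.14 and -0.63, and Cyp4a14, a fatty acid hydroxylase, -1.07 and 0.84.

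The ADX calls at ZT14 were Cyp2b9 (7.99-fold higher) and Cyp2b13 (log2 at least 2.08), drug-metabolising enzymes not Present in sham, and Cyp26a1 (log2 -1.01), which breaks down retinoic acid. For ADX against sham at ZT2, Cyp2b9 (at least 1.73) and Cyp26a1 (1.45) were called higher and Cyp4a14 (-1.58) lower. Over all probe sets, 0.869% were called higher there and 0.419% lower. At ZT14 Cyp2b9 (at least 5.25), Cyp2b13 (at least 2.08) and Cyp26a1 (1.07) were called higher and 0 lower, beside 1.18% and 0.781%. Most of the list leaned the other way, with a median for ADX minus sham of -0.10 (log2) at ZT2, 8 above 0 and 20 below. At ZT14 the median was -0.11, with 10 above 0 and 19 below. The bright P450 genes Cyp2e1 and Cyp3a11 had day-night differences near 0, with Cyp2e1 at 0.16 and 0.05 and Cyp3a11 at -0.06 and -0.01 in sham and ADX. For ZT14 minus ZT2 the list's median was -0.02 in sham and 0.01 in ADX. In sham 13 of the 29 lay above 0 and 15 below, and in ADX 16 above and 13 below.

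Markers of cells that also make or break down haem were read beside these values. Of 20 markers of Kupffer cells and macrophages, cells that express Hmox1 when they clear red cells, 16 were on the array and 14 were measured. The signals of the 16 summed to 1499 and 1363 in sham and 1597 and 1456 in ADX, in the order ZT2 and ZT14. None was called in sham or at ZT2, beside 2.95% and 1.29% of all probe sets. Marco and Itgam were Present on no array. Cd14 was called lower at ZT14 in ADX (-1.12), where 1.21% of all probe sets were called lower. The sum was lower at ZT14 in each pair. For ZT14 minus ZT2 the list's median was -0.14 (log2) in sham, with 3 of the 14 above 0 and 11 below. In ADX it was -0.02, with 7 above 0 and 7 below. For ADX minus sham at ZT2 it was 0.08, with 8 above 0 and 6 below.

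Of 20 red cell markers, 12 were on the array and 7 were measured. The signals of the 12 summed to 1993 and 1316 in sham and 1694 and 2303 in ADX. Hba-a1, a globin gene, was called higher in ADX than in sham at ZT14 (log2 1.03), beside 1.18% of all probe sets. For that contrast the list's median was 0.03, with 4 of the 7 above 0 and 3 below. Ank1, of the red cell skeleton, was called higher at ZT14 than at ZT2 in ADX, with signals of 12.8 and 25.7, beside 1.42%. Slc4a1, Epb42, Rhag, Rhd and Gata1 were Present on no array. The sums went opposite ways in the pairs. Hba-a1 made up most of each sum, with 1552 and 874 in sham and 1261 and 1789 in ADX. For ZT14 minus ZT2 the list's median was 0.27 (log2) in sham, with 4 of the 7 above 0 and 3 below. In ADX it was 0.50, with 6 above 0 and 1 below. Hepatocyte markers summed to between 45758 and 47459 on the 4 arrays. Apob was called higher at ZT14 in sham (1.01) and Ass1 in ADX (2.36), beside 1.7% and 1.42% of all probe sets. Ass1 was also called higher in ADX than in sham at ZT14 (1.26), beside 1.18%. For that contrast the list's median was -0.04, with 3 of the 13 measured above 0 and 10 below. For ZT14 minus ZT2 it was 0.00 in sham (7 above 0, 6 below) and -0.02 in ADX (5 above, 8 below). Of 14 endothelial and stellate markers 9 were measured and 0 called in any comparison, where 1.29% to 2.95% of all probe sets were called. Of 8 adrenal cortex markers only Cyp21a1 was Present. The part of any cell type in the results was not tested.

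The genes nearest to Alas1 in pattern were taken by the root mean square difference of log2 signals, each centred on its own mean over the 4 arrays, among 5317 probe sets of other genes that had a single gene symbol and were Present on at least 2 arrays. They were Pcp4l1 (0.16), Nr1d2 (0.21), Nampt (0.21), Mknk2 (0.22) and Pla2g12a (0.23). Each had both ZT14 arrays above both ZT2 arrays, which the choice by nearness to Alas1 favours. Nampt, an enzyme of NAD synthesis, had signals of 39.3 and 154 in sham and 46.2 and 106 in ADX. Mknk2, a protein kinase, had 49.7 and 120 in sham and 44.9 and 112 in ADX. Pcp4l1 was Absent at ZT2 in both operations.

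For Hmox1 the nearest were Hinfp (0.06), Fam102a (0.09), Numb (0.12), Slpi (0.13) and Slc20a1 (0.13). As the choice by nearness favours, the sham ZT2 array was the lowest in all 5, with Hmox1's own value there at 29.9 units. Fam102a alone of them was Present on all arrays, with signals of 25.7 and 74.6 in sham and 43.9 and 67.9 in ADX. The other 4 were Absent at sham ZT2. Slc20a1, a phosphate transporter, had 13.2 and 48.3 in sham and 32.2 and 47.0 in ADX. The likeness rests on 4 arrays and was not tested.

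**Figure D5:**
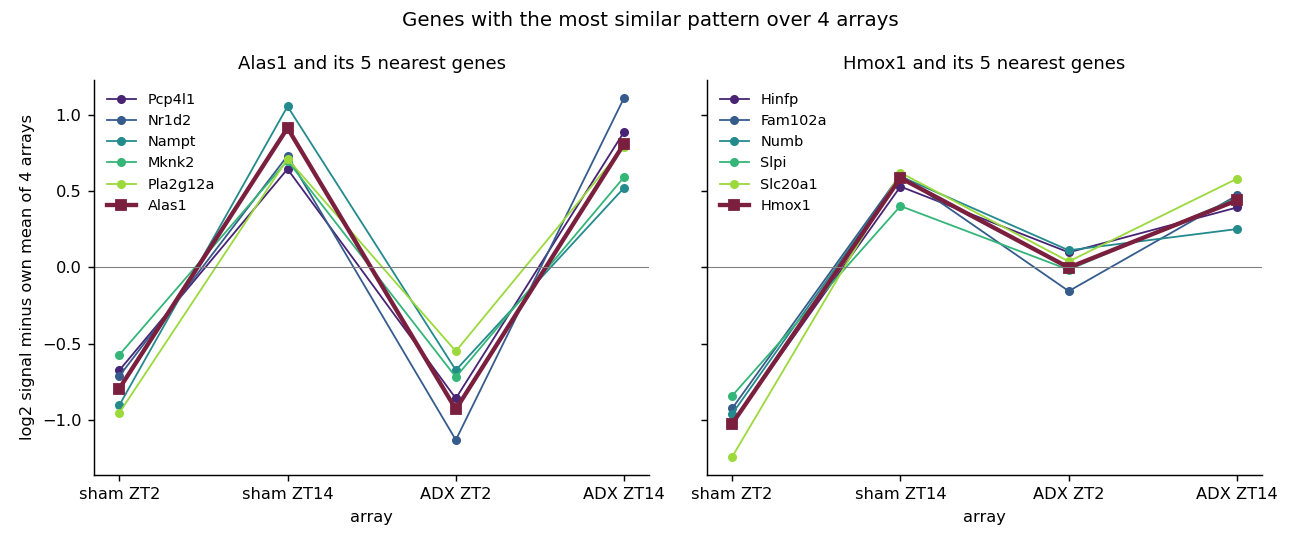
Log2 signal minus the gene's own mean over 4 arrays (y axis) on each array (x axis) for Alas1 (left) and Hmox1 (right) in dark red with their 5 nearest genes, the lines only joining the points of a gene. The Alas1 set alternates between times in both operations, and the Hmox1 set has its lowest point on the sham ZT2 array.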

How the data were processed

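Liver RNA of 4 groups was measured on 4 arrays. Per the file headers, the deposited values are an Affymetrix Signal per probe set, a linear intensity from a single-array analysis, with a detection call and a deposited detection p-value. No label or header used here names the software version or scaling target. The authors' value table held the same intensities (largest difference 0). Run sheets showed 1 hybridisation day, 1 station and a wash module per array, so that module and group cannot be told apart.

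Each array was scaled to a common 2% trimmed mean (59.4), floored at the median Absent signal (3.91) and taken to log2. The 66 control probe sets were left out. Of 11251 annotated probe sets, 10855 had 1 symbol, and 10839 of these were found in the RefSeq table (GRCm38.p6). A gene of a list was represented by its brightest probe set. Calls needed 2-fold and a Present brighter array, and folds against an array not Present are lower bounds. limma 3.58.1 (R 4.3.3) was fitted with time and operation to the 5872 probe sets detected (Present) on 2 or more arrays, 7 of the 8 members among them, with Benjamini-Hochberg adjustment. The number of arrays limits the precision. Python 3.11.15, NumPy 2.4.6 and pandas 2.3.3 did the rest, tested on simulated data.

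The members and lists were chosen with earlier results of these data known. Text names all member probe sets, list genes called in any comparison, the other pathway enzymes and the 5 nearest patterns of Alas1 and Hmox1. Nr1d1, Lonp1, Nfe2l2, Bach1, the nuclear receptors, bright P450 genes and iron genes named without a call were chosen after their values were seen. Alternatives for scaling, floor, detection, probe sets, fold and model were tried.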

Additional observations from a re-analysis of the deposited data

Results flagged for a closer look

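Several genes had differences of opposite sign in the pairs or times compared, each on 1 array per group, so that none of these differences was tested. For ADX minus sham, Hmox1 had log2 differences of 1.03 at ZT2 and -0.15 at ZT14, a change of -1.17. Urod (94275_at) also turned sign, but with values of -0.03 and 0.02, 0.046 apart.

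Among genes of the lists, the same contrast turned sign between the times for Ass1 (change of 2.72), Cyp4a14 (1.91), Egr1 (1.58) and Hba-a1 (1.33). Between the sham and ADX day-night pairs the sign turned for Apob (change of -1.01, from 1.01 to -0.01), Ass1 (2.72), Cd14 (-1.30), Cyp2b9 (3.52) and Cyp4a14 (1.91). Egr1 was Absent on both ZT14 arrays, Cyp2b9 on both sham arrays and Cd14 at sham ZT2 and ADX ZT14, so that the sizes of their differences depend on dim signals. Ass1 was Marginal at sham ZT2 and Present on the other arrays.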

How the results depend on the processing

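The day-night calls of Alas1 in both pairs and of Hmox1 in sham held under all 8 alternatives that apply to them, with log2 differences of 1.63 to 1.77 (Alas1, sham), 1.71 to 1.82 (Alas1, ADX) and 1.54 to 1.62 (Hmox1, sham). Hmox1 at ZT2 fell under 2-fold with the deposited signals (0.85) and quantile normalization (0.97), which left 0 member probe sets called there. For ADX against sham at ZT14, 0 were called with the floor doubled or at 23.9 units, or with Present required on both arrays. In the additive limma fit, Alas1 (1.73 for time) passed with a variance trend or with the tested term alone. The fit's count of probe sets for time, 2 as reported, was 0 without the filter on detection, with the floor doubled or with it at 23.9 units, 1 over probe sets Present on all arrays or with the floor at 1 unit, 18 with the deposited signals, 154 with the variance trend and 11 with the tested term alone. At an unadjusted p under 0.05 there were 773. For operation it was 0, with 329 at an unadjusted p under 0.05, and 1 with quantile normalization, the deposited signals, the trend or the tested term alone. Calls over all probe sets fell from 367 to 142 (sham), 327 to 120 (ADX), 160 to 20 (ZT2) and 244 to 46 (ZT14) with the floor at 23.9 units. The cause of these changes was not tested. No paired analysis was possible because each group has 1 array and the labels give no replicate numbers, and leaving out an array would leave the fit no residual degree of freedom.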

Other observations

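Over all probe sets, 2.95% were called in the sham day-night pair and 2.63% in the ADX pair. Of 32 listed genes of haem and iron transport and storage, 21 were measured. At ZT14, 0 were called in sham and 1 was called lower in ADX. That gene was Abcb10, a mitochondrial transporter needed for haem synthesis in red cell precursors, with signals of 41.5 and 37.2 in sham, 34.0 at ADX ZT2 and 16.8 (Absent) at ADX ZT14. Its difference was -1.02 (log2) in the ADX pair and -1.15 for ADX against sham at ZT14, both bounds. The iron store Fth1 differed by -0.14 in sham and -0.04 in ADX by its brightest probe set, while a dimmer one, Present on 1 array, gave 0.75 and 0.08. The haem scavenger Hpx differed by -0.18 and 0.08, and hepcidin (Hamp) by 0.26 and -0.20. The list's median was -0.04 in sham and -0.15 in ADX, beside 0.00 over all single-gene probe sets.

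Of 17 NRF2 target genes, which share that activator with Hmox1, 12 were measured. Nqo1 was not counted, because its brightest probe set was Present on no array. A dimmer Nqo1 set was Present on all 4, with signals of 7.31 and 8.80 in sham and 9.07 and 9.61 in ADX. None was called higher in the 4 comparisons, beside 0.869% to 1.7% of all probe sets. Gclc, of glutathione synthesis, was called lower at ZT14 in sham, where 1.26% of all probe sets were called lower. Its signals were 536 and 234 in sham and 436 and 317 in ADX (log2 -1.20 and -0.46). The list's median was -0.10 in sham and -0.07 in ADX. In each pair 5 of the 12 lay above 0 and 7 below.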
